A study of Mus musculus with 6 samples.

Results

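The miR-200 family consists of 5 mouse miRNAs, miR-200b, miR-200a, miR-429, miR-200c and miR-141, chosen here by name. Their mouse probe sets are mmu-miR-200b_st, mmu-miR-200a_st, mmu-miR-429_st, mmu-miR-200c_st and mmu-miR-141_st, 1 per miRNA among the 609 mouse probe sets and 7625 probe sets in all of the array, and 28 further probe sets carry the same names for other mammals. Passenger strands, written with a star, were not counted as members. The arrays measured miRNAs in lung tissue, the upper left lobe, of 6 C57BL/6 mice of 6 to 10 weeks, with 1 array per sample. In the 2 CC10-rtTA-IL13 transgenic mice (TG), the CC10 promoter of airway club cells expresses rtTA, a transactivator that turns on the interleukin 13 transgene when doxycycline is given. Interleukin 13 is a cytokine of allergic inflammation. The remaining 4 mice were wildtype (WT). TG and WT mice alike received doxycycline at 2 mg/mL in their water over 7 days. Since there was no group with rtTA only, effects of rtTA and of interleukin 13 cannot be told apart.

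The miR-200 family is a set of miRNAs of epithelial cells. Its members bind the messenger RNAs of ZEB1 and ZEB2, transcription factors that repress E-cadherin and other epithelial genes, and ZEB1 and ZEB2 in turn repress the promoters of both miR-200 clusters. This mutual repression is known for holding cells in an epithelial or a mesenchymal state, and in lung the family is known from the airway and alveolar epithelium. The comparison of TG with WT asks whether these miRNAs differ between lungs with the induced transgene and wildtype lungs. Messenger RNAs, ZEB1 and ZEB2 among them, are not measured by these arrays.

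The 5 mature sequences show how the family divides, since the seed, bases 2 to 8 from the 5′ end, decides most of the targets of a miRNA. All 5 matched RefSeq (GRCm38.p6, minus strand), each as the arm named 3p there, and the capitals below mark the seed. The probe set names give no arm, and the deposited table names no genome build, so these positions are those of RefSeq.
miR-200b: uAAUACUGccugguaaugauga
miR-429: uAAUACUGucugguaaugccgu
miR-200c: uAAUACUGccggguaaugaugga
miR-200a: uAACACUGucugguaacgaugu
miR-141: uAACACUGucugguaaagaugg
miR-200b, miR-429 and miR-200c share the seed AAUACUG, and miR-200a and miR-141 share the seed AACACUG. The 2 seeds differ by 1 base, U4C from miR-200b to miR-200a, counted from 1 at the 5′ end of the mature miRNA.

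The genes lie in 2 clusters that cross the seed groups. On chromosome 4 the hairpins of Mir429 (chr4:156053905-156053987), Mir200a (chr4:156054896-156054985) and Mir200b (chr4:156055681-156055750) span 1846 bases. On chromosome 6 those of Mir141 (chr6:124717914-124717985) and Mir200c (chr6:124718322-124718390) span 477 bases. RefSeq places the chromosome 4 hairpins within the span of the lncRNA gene Gm13648, and the chromosome 6 hairpins between the protein-coding genes Phb2 and Ptpn6. Over the first 22 bases, miR-200b and miR-200c differ at 2 positions (U11G and A22G), and miR-200a and miR-141 also at 2 (C17A and U22G). The other 8 pairs differ at 4 or 5 positions. The probe sequences are not in the files, and hybridisation of one member to another's probe set was not tested.

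Values are the authors' deposited signals, read as log2; the base is inferred from their range of 3.37 to 13.36, so every fold change rests on it. Plant probe sets served as background: detection meant a signal over their 95th percentile on the same array, a limit of 4.22 and 4.25 in TG and of 4.27 to 4.33 in WT. Detection on 2 or more arrays was required for testing, which kept 197 mouse probe sets, all 5 members among them. On the TG arrays 201 and 199 mouse probe sets were detected, and on the WT arrays 132 to 172. The log2 difference, TG minus WT, had a median of 0.21 over the 197 tested probe sets, and it was -0.23 after the tested probe sets of each array had been centred on a median of 0. A small positive difference therefore has no settled direction. The highest signal was 11.50 and 11.42 on WT replicates 1 and 4, against 13.13 to 13.36 on the other 4 arrays. Across the tested probe sets, WT replicate 4 correlated least with the TG arrays, at 0.879 and 0.869. No batch was given in the labels, and precision is limited by having 2 TG and 4 WT arrays.

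With all 6 arrays, none of the 5 members passed the test between TG and WT. The limma count at an adjusted p under 0.05 (Benjamini-Hochberg over the 197 probe sets) was 0 of 5, and 0 of 5 also had an unadjusted p under 0.05. Among all tested mouse probe sets, 3.05% were called higher in TG and 0% lower. At an unadjusted p under 0.05 these shares were 17.3% and 2.54%. miR-200c was the one member whose TG signals both exceeded all 4 WT signals, an order that held for 1 of the 5 members and for 29.4% of the tested probe sets. The opposite order held for 0 of 5 members and 6.6% of the tested probe sets. The member differences ran from -0.09 to 0.54 with a median of 0.18, beside the median of 0.21 over all tested probe sets. Differences above 0 were found for 3 of 5 members and for 66% of the tested probe sets. In whole lung lobes, a change in the share of epithelial cells and a change of a miRNA per cell, in either direction, cannot be told apart.

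**Figure D1:**
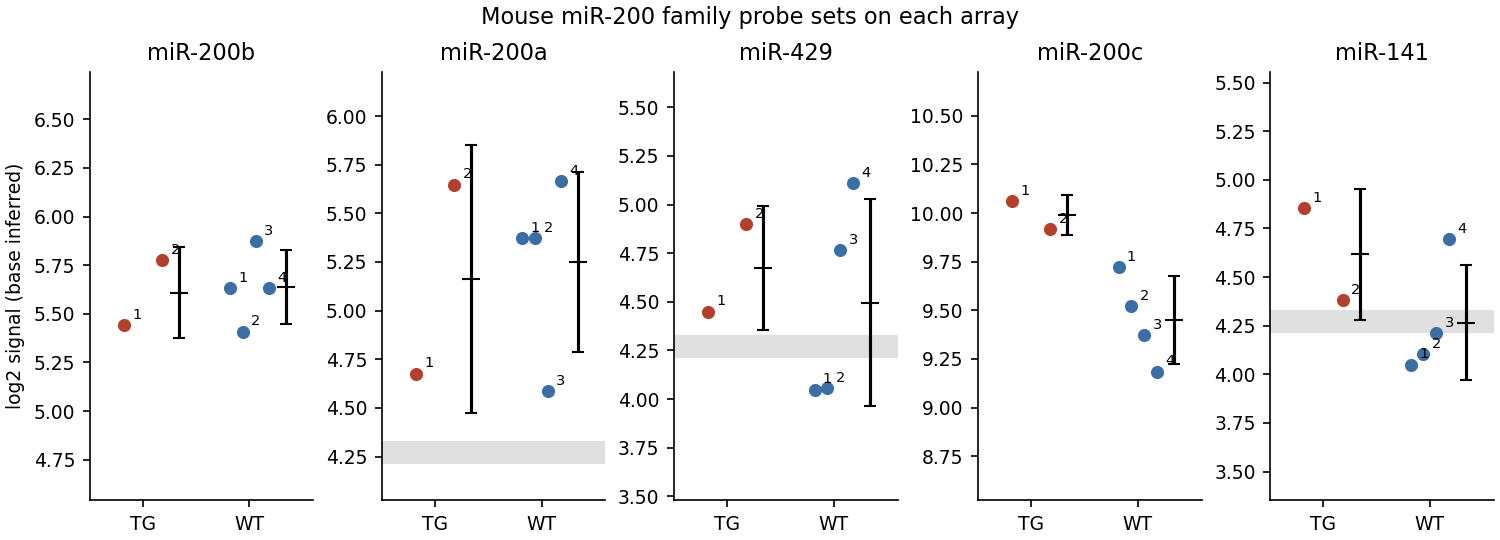
Log2 signal (vertical axis, base inferred, the same span in each panel) of the 5 mouse probe sets on each array, with TG on the left and WT on the right; points are single arrays numbered by replicate, black bars the mean ± SD (n = 2 and 4), and the grey band the range of the detection limits. The 2 TG points lie above all 4 WT points for miR-200c alone, and miR-429 and miR-141 have WT points below the band.

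miR-200c, of the AAUACUG seed and the chromosome 6 cluster, was detected on all 6 arrays, far above the detection limit. Its log2 signal was 10.06 and 9.92 on the TG arrays, against 9.72, 9.52, 9.37 and 9.19 on WT replicates 1 to 4. The TG mean was 9.99 ± 0.10 (SD, n = 2) and the WT mean 9.45 ± 0.23 (SD, n = 4). The groups did not overlap, the gap between them being smaller than the range of the WT arrays. The difference of 0.54 ± 0.24 (SE), 1.45-fold with a 95% interval of 0.989 to 2.14, had an adjusted p of 0.249 in limma. The exact two-sided permutation test over the 15 splits of the arrays gave p = 0.0667, the smallest p they allow. Of the 197 tested probe sets, 57 had a larger difference. With the tested probe sets of each array centred on their median, the miR-200c difference was 0.10.

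The same-name probe sets of other mammals read miR-200c alike. All 8 were detected on every array, and on each of them the TG signals both exceeded the highest WT signal. Their log2 signals ran from 9.70 to 10.23 on TG arrays and from 8.75 to 9.66 on WT arrays. Their differences (TG minus WT) lay between 0.63 and 0.75, all above the mouse probe set's 0.54. Averaging all same-name mammalian probe sets gave 0.67 ± 0.21 (SE) for miR-200c, with an adjusted p of 0.107 in limma. These probe sets measured the same 6 RNA samples, so they add no animals.

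miR-141 lies within the same short stretch of chromosome 6 as miR-200c but carries the AACACUG seed, and its signal stayed near the detection limit. It read 4.86 and 4.38 on the TG arrays, both detected, against 4.05, 4.10, 4.21 and 4.70 in WT, where replicate 4 alone was detected. WT replicate 4 thus lay between the TG arrays, and the groups overlapped. The TG mean was 4.62 ± 0.34 (SD, n = 2) and the WT mean 4.27 ± 0.30 (SD, n = 4). The difference was 0.35 ± 0.28 (SE), 1.28-fold as measured and 1.17-fold with values under the limit of their array set to it. Its adjusted p was 0.525 in limma, and the exact permutation p was 0.267. Other mammals have 7 probe sets of this name, of which 4 were detected on 2 or more arrays, with differences of 0.16 to 0.67. Like the mouse one, 3 of these passed through both TG arrays and 1 WT array, and the rhesus one (mml) through the TG arrays alone, so the filter itself favours a positive sign there. The remaining 3 were detected on 1 array or none.

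**Figure D2:**
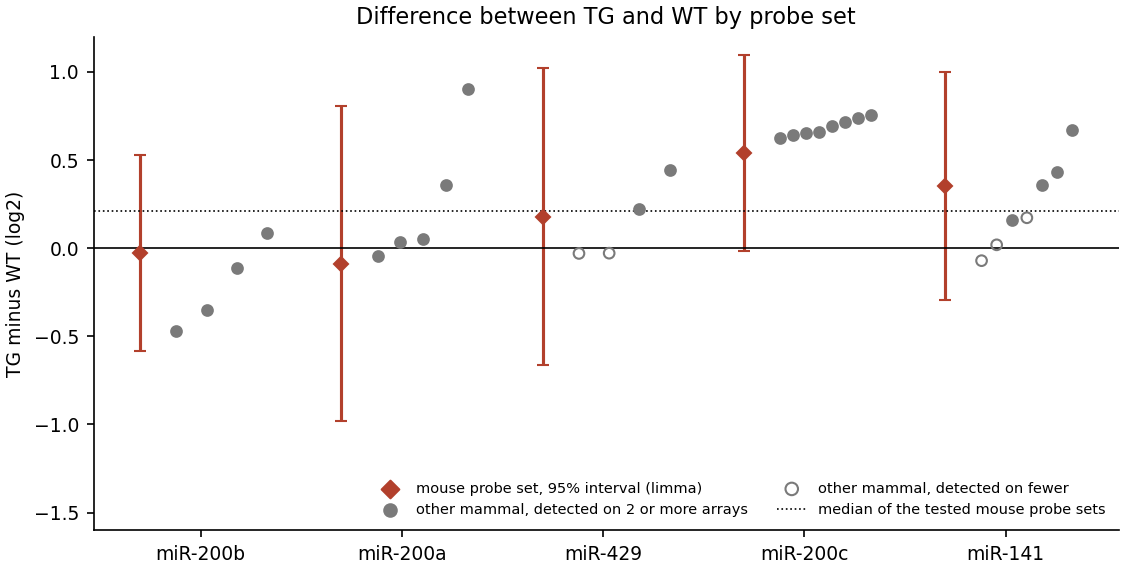
Difference between TG and WT in mean log2 signal (vertical axis) for each family member. Red diamonds are the mouse probe sets with their 95% interval from limma, filled grey points other mammals' probe sets detected on 2 or more arrays, open points those detected on fewer, and the dotted line the median of 0.21 over the tested mouse probe sets. The 8 grey points of miR-200c lie close together at 0.63 to 0.75, while those of miR-200b and miR-200a spread around 0.

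The 3 members of the chromosome 4 cluster showed no separation of the groups. miR-200b, whose mature sequence is the nearest to that of miR-200c, was detected on all 6 arrays. It read 5.44 and 5.78 in TG, against 5.63, 5.41, 5.87 and 5.63 in WT. Both TG values lay within the WT range. The TG mean was 5.61 ± 0.24 (SD, n = 2) and the WT mean 5.64 ± 0.19 (SD, n = 4). The difference was -0.03 ± 0.24 (SE), with a 95% interval of -0.58 to 0.53 and an adjusted p of 0.958 in limma. The exact permutation p was 0.867. The upper bound lies just under the 0.54 measured for miR-200c. Because the interval is wide on both sides of 0, the test does not show that miR-200b was alike in both groups.

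For miR-200b, the 4 same-name probe sets of other mammals were all detected on every array. They gave differences from -0.47 to 0.08, of which 3 were below 0. The rat probe set (rno) had log2 signals of 7.73 and 7.63 in TG and of 7.71, 7.16, 7.68 and 7.86 in WT. Its signals were above those of the mouse probe set on every array, although the samples were the same. Probe sets of 1 name can therefore differ in signal, and no member's level is ranked against another's here.

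miR-200a, of the AACACUG seed, was likewise detected on all 6 arrays, and its replicates spread widely. It read 4.68 and 5.65 in TG, against 5.37, 5.37, 4.59 and 5.66 in WT. TG replicate 1 and WT replicate 3 were low and the other 4 arrays high, so the low and the high values were found in both groups. The TG mean was 5.16 ± 0.69 (SD, n = 2) and the WT mean 5.25 ± 0.46 (SD, n = 4). The difference was -0.09 ± 0.39 (SE), with an adjusted p of 0.908 in limma and an exact permutation p of 0.933. Without TG replicate 1 the difference was 0.40, and without TG replicate 2 it was -0.57. WT replicate 3 was not the lowest WT array on any of the 5 probe sets of other mammals. The human one (hsa) read 5.50 and 5.04 in TG and 5.35, 5.22, 5.24 and 5.42 in WT. All 5 were detected on 5 or 6 arrays, with differences of -0.04 to 0.90, and in the opossum one (mdo) the TG signals both exceeded every WT signal.

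miR-429, of the AAUACUG seed, was detected on both TG arrays and on 2 of 4 WT arrays. It read 4.45 and 4.90 in TG, against 4.05, 4.06, 4.77 and 5.11 in WT. The WT arrays fell into a pair under the limit and a pair within or above the TG values. The TG mean was 4.67 ± 0.32 (SD, n = 2) and the WT mean 4.50 ± 0.53 (SD, n = 4). The difference was 0.18 ± 0.36 (SE), 1.13-fold as measured and 1.04-fold with values under the limit set to it. It had an adjusted p of 0.860 in limma and an exact permutation p of 0.667. Of the 4 probe sets of other mammals, the dog (cfa) and rat ones were detected on 5 arrays each, with differences of 0.45 and 0.22, and the human and rhesus ones were detected on 0 arrays.

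**Figure D3:**
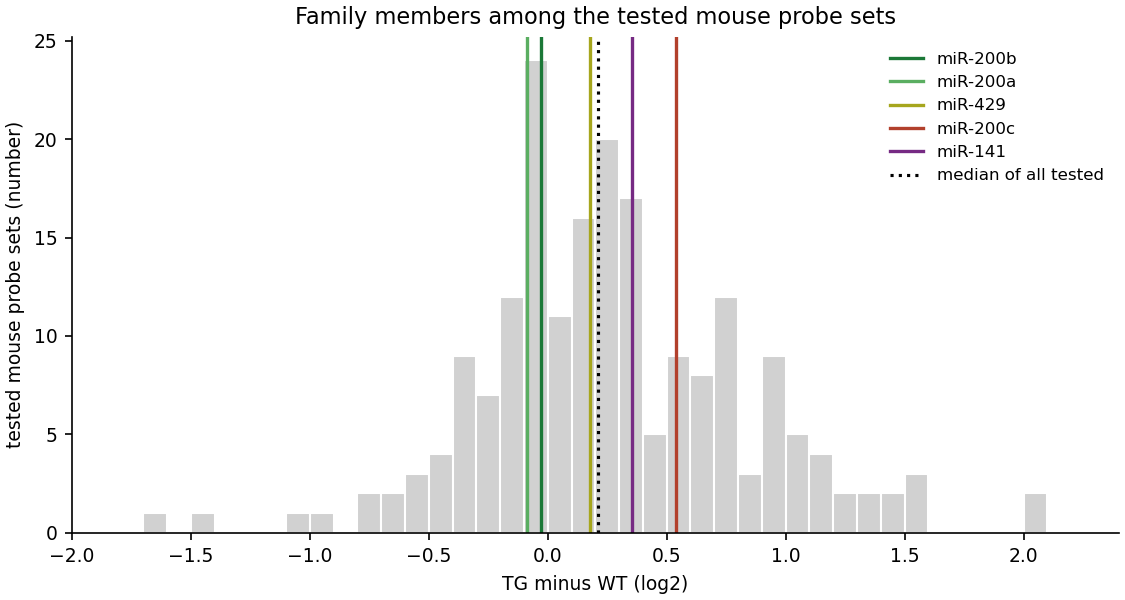
Number of tested mouse probe sets (vertical axis, 197 in all) by their difference between TG and WT in mean log2 signal (horizontal axis), with a coloured line for each family member and a dotted line for the median of 0.21. miR-200a, miR-200b and miR-429 lie below that median, and miR-141 and miR-200c above it.

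Because the members were read on the same arrays, the log2 difference between 2 of them within an array does not depend on the scaling of that array by a constant. miR-200c minus miR-200b was 4.62 and 4.14 in TG, against 4.09, 4.11, 3.50 and 3.55 in WT. The TG values both exceeded every WT value, TG replicate 2 by a margin far smaller than the spread within either group. The TG mean was 4.38 ± 0.34 (SD, n = 2) and the WT mean 3.81 ± 0.33 (SD, n = 4), which differ by 0.57, with an exact permutation p of 0.133. The other 9 of the 10 pairs of members overlapped between TG and WT. The exact two-sided permutation p over the 10 pairs ran from 0.133 to 0.867, so unequal changes of the members were not shown.

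Within the WT group, miR-200c was highest on replicate 1 and lowest on replicate 4, with replicates 2 and 3 between them in that order. miR-429 and miR-141 shared the opposite order of all 4 WT arrays, although replicates 1 and 2 were under the detection limit for both, and replicate 3 also for miR-141. miR-200a was likewise highest on replicate 4 but lowest on replicate 3, and miR-200b was highest on replicate 3 and lowest on replicate 2. For the 8 probe sets of other mammals, WT replicate 4 was again the lowest WT array for miR-200c, at 8.75 to 8.88, against 9.01 to 9.66 on WT replicates 1 to 3. For miR-200b the same array was the highest WT array on all 4 probe sets of other mammals but not on the mouse one. On the mouse probe sets alone, the pair of chromosome 6, miR-200c and miR-141, thus ran in opposite order over the WT arrays. Of the 4 miR-141 probe sets of other mammals detected on 2 or more arrays, WT replicate 4 was the highest WT array on 1 and the lowest on 1. The latter, of gorilla (ggo), read 4.31, 4.14, 4.06 and 3.97 on WT replicates 1 to 4, the order of miR-200c, with 1 WT array detected. An opposite order of the pair was therefore not shown.

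The miRNAs whose log2 signals followed a member most closely over the 6 arrays were sought among 168 other tested mouse probe sets, by Pearson's r as a measure of likeness only. For miR-200c they were miR-130b (r = 0.972), miR-1198 (0.935) and miR-182 (0.934). miR-182, a member of the miR-183 cluster of sensory and epithelial cells, had a TG mean of 6.08 ± 0.26 (SD, n = 2) and a WT mean of 5.50 ± 0.22 (SD, n = 4), a difference of 0.57 ± 0.25 (SE) with an adjusted p of 0.249 in limma. The nearest to miR-141 were miR-494 (0.947), miR-421 (0.898) and miR-22 (0.859). The nearest to miR-429 were miR-27b (0.875), miR-29a (0.858) and miR-30e (0.848). For miR-200b they were miR-290-3p (0.914), miR-345-3p (0.851) and miR-706 (0.773), and for miR-200a miR-491 (0.853), miR-705 (0.814) and miR-1187 (0.781). No member was among the candidates, and each r is among the 3 highest of 168. Several of these miRNAs lay near the detection limit. Means in TG and WT were 4.16 and 4.24 for miR-290-3p, 4.19 and 4.23 for miR-1187, and 4.27 and 4.26 for miR-345-3p. Of the nearest to miR-200c, miR-130b had means of 4.67 in TG and 4.30 in WT, and miR-1198 had 4.84 and 4.07.

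Of other miRNAs of epithelial cells, 0 of 6 tested were called in either direction by limma, with 1, miR-205, at an unadjusted p under 0.05. The list held 7 miRNAs, and miR-96 was detected on 0 arrays. Differences were above 0 for 5 of the 6 tested, with a median of 0.41, or 4 of 5 with a median of 0.25 without miR-205, beside 0.21 over all tested probe sets. miR-205, which like the miR-200 family targets ZEB1 and ZEB2, read 4.69 and 4.52 in TG, against 3.89, 4.01, 3.88 and 4.10 in WT. It was detected on both TG arrays and 0 WT arrays, so it entered the test through TG alone, and its measured difference of 0.63 ± 0.22 (SE) had an adjusted p of 0.160 in limma. miR-375, found in secretory epithelium, was at 0.25 ± 0.35, and miR-203, found in stratified epithelium, at -0.31 ± 0.25. Of the ciliated cell miRNAs, 3 of 6 were tested and 0 called, with a median of 0.19. The 1 at an unadjusted p under 0.05, miR-449a, was detected on 0 WT arrays and entered the test through TG alone, and the other 2 had a median of 0.18.

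The summed linear signals of 3 marker lists, epithelial, leukocyte and endothelial, did not overlap between TG and WT arrays. Those of the ciliated, mesenchymal, erythroid and heart and skeletal muscle lists overlapped. Among single tested probe sets, both TG signals lay above all WT signals for 29.4% and below them for 6.6%. Without its strongest probe set, each of the 3 sums overlapped. That overlap does not show that the remaining members were alike in both groups. Over the 7 epithelial list members the sum was 344 to 388 on TG arrays and 175 to 308 on WT arrays. Without miR-31 it was 153 to 194 in TG and 127 to 168 in WT, which overlap. For the 6 leukocyte miRNAs the sum was 411 to 467 in TG and 242 to 346 in WT, with miR-142-3p and miR-142-5p detected on 0 arrays. Without miR-342-3p, a lymphocyte miRNA, it was 171 to 190 in TG and 146 to 187 in WT, which also overlap. miR-223, a myeloid miRNA of the same list, was detected on 0 TG and 2 WT arrays, with a measured difference of -0.27. For the 2 endothelial miRNAs the sum was 646 to 663 in TG and 725 to 2349 in WT, and it rests on miR-126-3p, since miR-126-5p was detected on 0 arrays. In the 6 mesenchymal and smooth muscle miRNAs, which mark the cells where the miR-200 family is low, the sum was 1682 to 1715 in TG, within the 1127 to 1956 of WT. The mesenchymal list had 6 tested and 0 called (1 at an unadjusted p under 0.05), with a median difference of -0.16. Its differences were split, 3 above 0 and 3 below. The 1 at an unadjusted p under 0.05, miR-199a-5p, was higher in TG, with means of 5.54 in TG and 4.34 in WT. Its adjusted p was 0.0812 in limma. Its list neighbours miR-199a-3p and miR-199b were lower in TG, with differences of -0.41 ± 0.50 and -0.62 ± 0.38 (SE). Their adjusted p was 0.722 and 0.400 in limma. The leukocyte list had 4 tested and 0 called (2 unadjusted), with a median of 0.46. The endothelial list had 1 tested, miR-126-3p, and 0 called (1 unadjusted), with a difference of -1.05 ± 0.44 (SE). Both TG signals of miR-126-3p lay below all WT signals. At an unadjusted p under 0.05 in limma, 2.54% of the tested probe sets were lower in TG. Erythroid miRNAs had 2 of 3 tested and 0 called (0 unadjusted), with a median of 0.15. The part of these lists in the miR-200c values was not tested. Of the miRNAs of heart and skeletal muscle, 1 of 4 was tested, miR-133b, and it was detected on 0 TG arrays.

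Other ways of processing the values gave no call for any member. The miR-200c difference stayed above 0 in all 20 alternatives, from 0.10 with centring on the tested median to 0.67 with averaged mammalian probe sets, and passed in 0 of them (adjusted p of 0.105 to 0.817 in limma). Alternatives that altered only the tested set of probe sets or the variance model, array weights aside, could not move this difference from 0.54. With only WT replicates 2 and 3, the WT arrays whose highest signals match those of TG, the miR-200c difference was also 0.54. On the arrays numbered 1 and 2 alone it was 0.37, beside 0.62 for miR-429 and 0.54 for miR-141. The differences of miR-200b, miR-200a, miR-429 and miR-141 each changed sign under at least 1 alternative, and none passed under any.

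**Figure D4:**
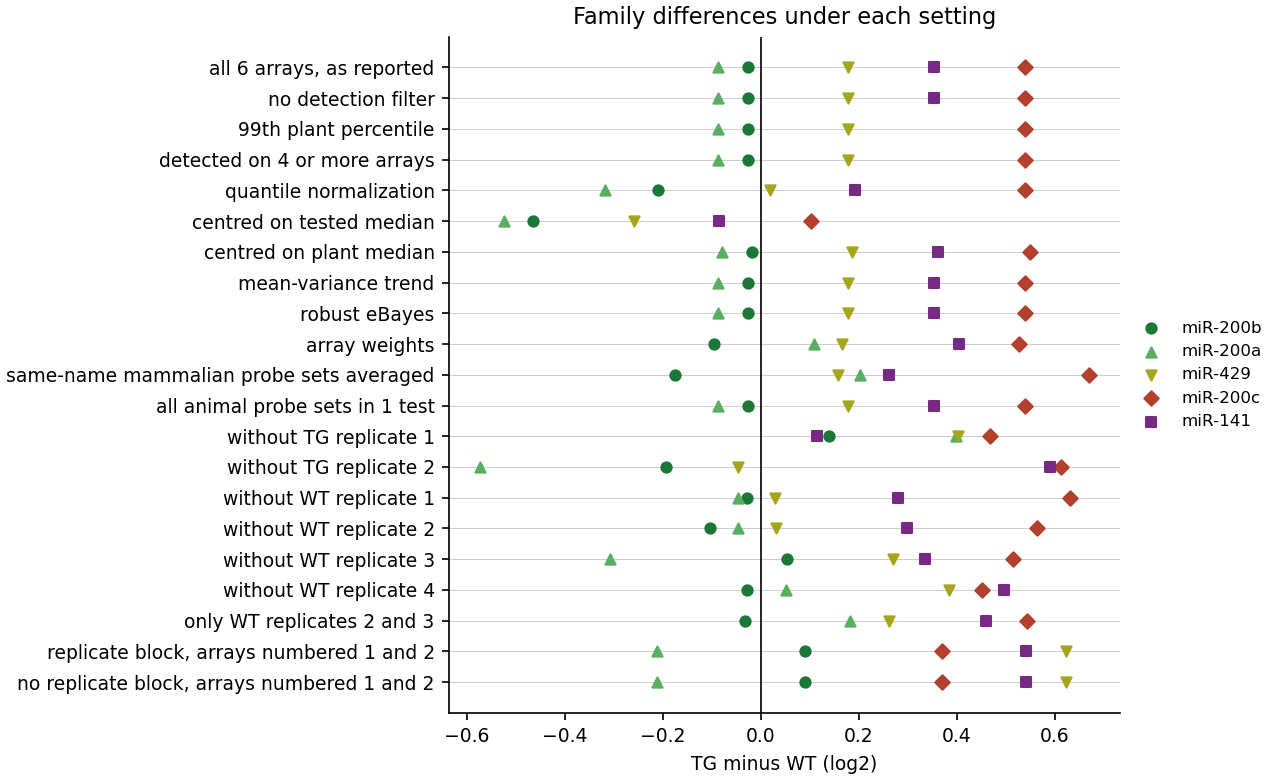
Difference between TG and WT in mean log2 signal (horizontal axis) of each family member under the reported setting and each alternative (rows). The miR-200c diamonds stay to the right of 0 in every row, from 0.10 to 0.67, and the other members lie on both sides of 0; miR-141 has no point for the 2 stricter detection filters, which left it out.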

How the data were processed

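Per the labels' protocols, TRIzol was used to extract RNA, which was labelled with biotin in the standard Affymetrix way. The authors' deposited values, 1 per probe set and array, were taken as log2 signals from their range. How they were background-corrected, summarized and normalized is not given in the sources used here, and neither is the miRBase version. All sample columns were used. Species came from the prefix of each probe set name. TG (2 arrays) was compared with WT (4 arrays) by the moderated test of limma 3.58.1 (R 4.3.3), two-sided, with Benjamini-Hochberg adjustment over 197 mouse probe sets; 412 under the detection filter were left out. Single values were tested by exact permutation. The fit was tested on simulated data. Named miRNAs are the 5 members, the 3 tested mouse probe sets most alike to each, and up to 3 per marker list in listed order; miR-96, miR-31, miR-342-3p and miR-449a were named after their values were seen. Members, lists, tests and alternatives were chosen with earlier results of these data known. Alternatives covered the detection filter, scaling, variance model, averaging of same-name probe sets, left-out arrays and a replicate block. Sequences are from RefSeq (GRCm38.p6).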

Additional observations from a re-analysis of the deposited data

How the results depend on the processing

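No member passed the threshold in any alternative. Of the 20 alternatives for miR-200c, all 20 kept its direction. Those that altered only the tested set or the variance model, array weights aside, could not change the difference of any member. On the arrays numbered 1 and 2, with the replicate block and without it alike, miR-200b was at 0.090, miR-200a at -0.21, miR-429 at 0.62, miR-200c at 0.37 and miR-141 at 0.54. miR-200a was at 0.11 with array weights, 0.20 after averaging of same-name probe sets and 0.18 with only WT replicates 2 and 3. With centring on the tested median miR-429 was at -0.26 and miR-141 at -0.085; that centring lowers every difference by 0.44. Leaving out each array in turn gave -0.19 to 0.14 for miR-200b, -0.57 to 0.40 for miR-200a, -0.046 to 0.40 for miR-429, 0.45 to 0.63 for miR-200c and 0.11 to 0.59 for miR-141. miR-141 was not tested with the 99th plant percentile or with detection on 4 or more arrays.

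The count of called mouse probe sets, 6 with all arrays, was 0 with quantile normalization (33 at an unadjusted p under 0.05 in limma), 0 with only WT replicates 2 and 3 (30 unadjusted), 1 without the detection filter, with detection on 4 or more arrays and with all animal probe sets in 1 test, 2 with the 99th plant percentile and with centring on the tested median, 14 with averaged probe sets and 33 with array weights. It ran from 0 to 27 when each array was left out, with 0 without either TG array and without WT replicate 1 or 3 (17 to 33 unadjusted), 4 without WT replicate 4 and 27 without WT replicate 2. With the replicate block, on the 4 arrays numbered 1 and 2, it was 12, against 0 for those arrays without the block (30 unadjusted). The numbers are not known to pair the mice: same-numbered arrays deviated from their group means with r = -0.21 and 0.07. The causes of these moves were not tested. Sums of the marker lists without their strongest probe set were added after the data had been seen. Signals of miR-141 and miR-429 near the detection limit bound what can be read from them.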

Other observations

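The passenger strands of the family, which are cut from the same hairpins, were outside the comparison above and are named after their values were seen. miR-200b-star, the opposite arm of the miR-200b hairpin, read 5.05 and 4.69 in TG, against 4.08, 4.61, 4.09 and 4.15 in WT. The TG signals both exceeded every WT signal, an order that held for 29.4% of the tested mouse probe sets. WT replicate 2 was the only WT array that detected miR-200b-star, so the filter itself favours a positive sign there. The difference was 0.64 ± 0.26 (SE), with an adjusted p of 0.231 in limma, while miR-200b itself was at -0.03 ± 0.24. On the human probe set for miR-200b-star the groups overlapped, with 5.29 and 4.51 in TG and 4.09, 5.02, 4.43 and 4.27 in WT. miR-200a-star was detected on 1 TG and 1 WT array, with a difference of 0.02 ± 0.28. The mouse probe sets of miR-200c-star and miR-141-star were detected on 0 arrays.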
